A study of Arabidopsis thaliana with 13 samples.

Results

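Serine carboxypeptidase-like (SCPL), purple acid phosphatase (PAP) and beta-glucosidase (BGLU) genes of Arabidopsis thaliana were followed across inductions of the NAC transcription factors ANAC092 and ANAC059 and in leaves of their insertion lines. The 51 members are the probe sets of the Affymetrix array that the platform annotation pairs with exactly 1 gene whose symbol is scpl in any case, PAP or BGLU followed only by digits. They comprised 29 SCPL, 20 BGLU and 2 PAP genes, of 22746 probe sets other than controls. Every member had 1 probe set, and 3 further probe sets shared between several genes, among them scpl36 with scpl37 and BGLU21 with BGLU22, were left out.

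The study asked which genes respond early to ANAC092 and ANAC059, closely related factors known to promote leaf senescence. Shoots came from 3-week-old Col-0 seedlings in which estradiol switched on ANAC092 (3 arrays) or ANAC059 (2 arrays), or which held the same vector without an insert. All were given 10 µM estradiol for 5 h, so the controls shared the treatment and the vector. Leaf 11 was taken from 38-day-old soil-grown Col-0 wild type, an ANAC059 T-DNA line and an ANAC092 T-DNA line, with 1 array of 1 line each. Values are log2 signals from RMA (robust multi-array average), and the authors normalized 3 sets apart: ANAC092 with 3 empty vector arrays, ANAC059 with 2, and the 3 leaf arrays. How many independent lines or plants stand behind each inducible array is not stated. A shoot or leaf mixes cell types, so fewer cells of a type and less RNA per cell cannot be told apart.

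SCPL proteins are secreted or vacuolar serine hydrolases. Some trim amino acids from the carboxyl end of proteins, and relatives in the same family, such as the sinapate ester enzymes of Arabidopsis, transfer acyl groups from glucose esters instead. Purple acid phosphatases are metalloenzymes that release phosphate from organic esters, a step in recycling phosphate from ageing leaves or in scavenging it from soil. Beta-glucosidases of this family take glucose off stored conjugates of hormones, defence compounds and cell wall precursors, and are held apart from their substrates until tissue breaks or a compartment is emptied.

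The annotation bears on how these labels are read. Of the 2 PAP members only PAP20 is a purple acid phosphatase: PAP85 is a seed storage protein of the cupin type that shares the abbreviation, and is given here only because the rule takes it. The gene table names 49 SCPL, 40 BGLU and 32 PAP genes in this way, so the SCPL and BGLU values cover part of each family and the phosphatases are represented by PAP20 alone. PYK10, the beta-glucosidase of endoplasmic reticulum bodies also known as BGLU23, is listed under its older name and is not a member. No probe set in this annotation names ANAC092 or ANAC059 alone, so neither factor's own level was examined.

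After ANAC092 induction 5 of the 51 members rose and none fell: scpl48, PAP20, BGLU41, scpl20 and BGLU16. The calls are limma's, at a Benjamini-Hochberg adjusted p under 0.05 over all probe sets. The share called among all probe sets was 2.23% in either direction, 1.4% higher and 0.831% lower, against 9.8% of the members. The families were chosen with earlier results of these data known, so the gap between these shares is no test of the families. The members' median change was -0.00 on the log2 scale, close to -0.03 over all probe sets, and 25 of the 51 changes were positive. At an unadjusted p under 0.05 there were 7 higher and 3 lower members, against 12% of all probe sets in either direction.

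Of the carboxypeptidase-like genes, scpl48 (AT3G45010) had the highest change. Its log2 signal was 9.15, 9.04 and 9.37 on empty vector replicates 1, 2 and 3, and 12.97, 12.89 and 12.77 on ANAC092 induced replicates 1, 2 and 3. The 3 induced arrays lay close together and far above every control array. The rise was 12.9-fold (log2 change 3.69 ± 0.12 SE, n = 3 per group, limma adjusted p = 1.31e-05), and it was called in all 6 fits that left out 1 array. scpl20 (AT4G12910) rose to a smaller extent, from 8.28, 8.14 and 8.18 to 8.83, 8.99 and 8.83. Those groups did not overlap either, and the change was 1.61-fold (log2 0.68 ± 0.10 SE, n = 3 per group, limma adjusted p = 0.0148). It was called in 2 of the 6 fits without a single array and lost its call when empty vector replicate 1 (adjusted p = 0.0548) or 2 (0.0963) or induced replicate 1 (0.0691) or 3 (0.0808) was left out.

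The phosphatase gene PAP20 (AT3G52780) also rose strongly. It read 6.21, 6.18 and 5.65 on the empty vector arrays and 9.58, 9.96 and 9.74 on the induced ones. The induced arrays were all above the controls, and empty vector replicate 3 was the lowest of them. The rise was 13.4-fold (log2 change 3.74 ± 0.18 SE, n = 3 per group, limma adjusted p = 7.82e-05) and was called in all 6 fits that left out 1 array. PAP85, the storage protein gene, stayed between 5.84 and 6.18 on the 6 arrays, and the groups overlapped (log2 change -0.10, adjusted p = 0.804).

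Among beta-glucosidases BGLU41 (AT5G54570) changed most. Its log2 signal was 5.80, 5.73 and 5.87 without the factor and 8.16, 7.27 and 7.51 with it. All induced arrays were higher, and they were less alike than the controls (SD 0.459 against 0.07). The rise was 3.60-fold (log2 change 1.85 ± 0.21 SE, n = 3 per group, limma adjusted p = 0.00532), called in each of the 6 fits without a single array. Set against empty vector replicate 3 alone it was 1.78 and missed the threshold (adjusted p = 0.116). That fit takes the spread of the lone control from the induced arrays.

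BGLU16 (AT3G60130) went from 9.19, 9.02 and 9.02 to 9.74, 9.67 and 9.66. The induced arrays were again all higher, by 1.53-fold on average (log2 0.62 ± 0.10 SE, n = 3 per group, limma adjusted p = 0.0216). Without single arrays it was called in 2 of 6 fits and lost its call when empty vector replicate 1 (adjusted p = 0.0548) or 2 (0.125) or induced replicate 1 (0.12) or 3 (0.116) was left out, which leaves 3 members called in each of those fits. Averaging induced replicates 1 and 3, which lay closer to each other than to replicate 2, also ended the calls of BGLU16 (adjusted p = 0.115) and scpl20 (0.0706), while scpl48, PAP20 and BGLU41 were still called. The plot of levels by array shows the distance between the 3 strong and the 2 weak rises.

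**Figure D1:**
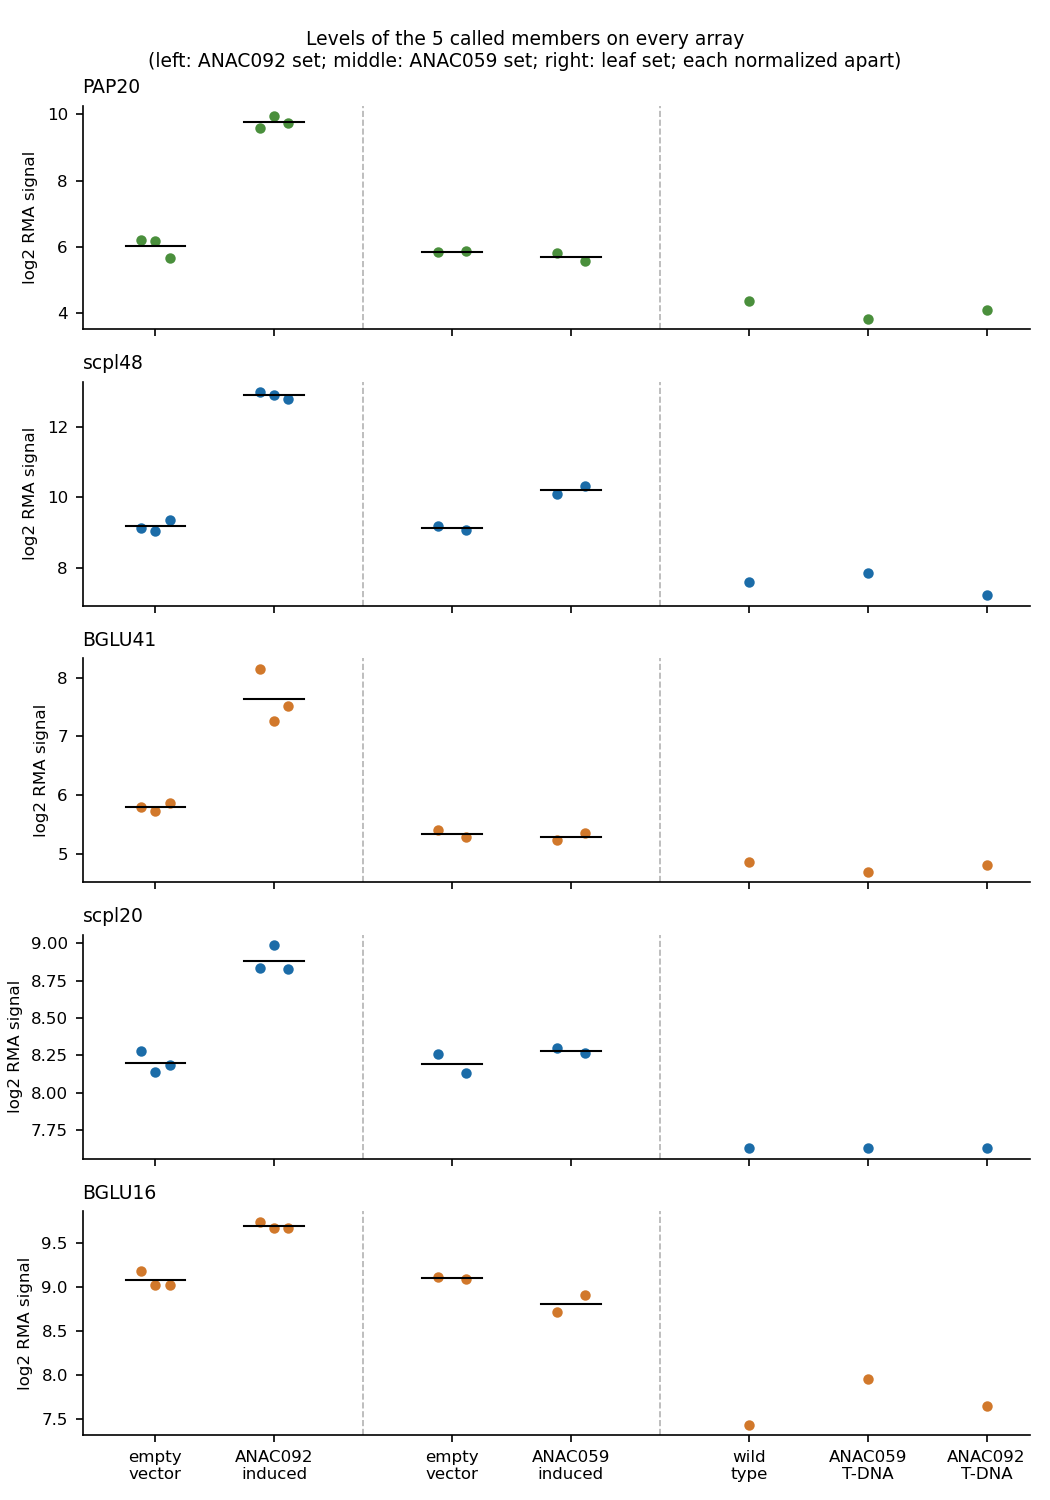
Log2 RMA signal (vertical axes) of the 5 members called after ANAC092 induction on all 13 arrays; points are arrays, black lines group means, and dashed lines part the 3 sets that were normalized apart. On the induced ANAC092 arrays scpl48 sits at 12.77 to 12.97 and PAP20 at 9.58 to 9.96, above all their controls, and of the 5 only scpl48 was called in the ANAC059 set.

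The 46 members that did not pass after ANAC092 induction had changes from -0.65 to 0.46. Of the 27 SCPL genes among them, SCPL34 had the lowest value. It read 8.06, 7.48 and 7.46 on the empty vector arrays and 6.98, 7.01 and 7.05 on the induced ones. The groups were apart, but the spread of the controls was large against the difference (log2 change -0.65 ± 0.17 SE, adjusted p = 0.128). Of the 18 BGLU genes that did not pass, BGLU44 was at -0.47 ± 0.11 SE, with 11.27, 11.17 and 11.28 on the controls and 10.90, 10.62 and 10.80 on the induced arrays (adjusted p = 0.0968). The other 17 lay between -0.35 and 0.24. The induced arrays were all above the controls for 9 members and all below for 5, against 7.98% and 12.4% of all probe sets.

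Several uncalled members are characterised enzymes. BGLU45 (log2 change -0.00, adjusted p = 0.994) and BGLU46 (0.16, 0.65) release lignin precursors from their glucosides. BGLU15 (-0.21, 0.488) acts on flavonol glycosides, BGLU28 (-0.35, 0.188) on glucosinolates under sulphur shortage, and BGLU42 (-0.06, 0.923) on coumarin glucosides in roots. None of these passed. On the controls BGLU45, BGLU46, BGLU28 and BGLU15 averaged 5.6, 5.6, 6.1 and 7.3. Those means are below the lowest array median of this set, 7.55, so a change could have been compressed. The bright signals of scpl35 (10.71, 10.68 and 11.15 on controls, then 10.84, 10.60 and 10.75) and SCPL49 (10.58, 10.50 and 10.78, then 10.66, 10.71 and 10.66) overlapped between the groups. Outside the naming rule, and chosen after its values were seen, scpl28 read 7.04 on induced replicate 2 against 5.59 and 5.81 on induced replicates 1 and 3 and 5.55 to 5.86 on the controls. It rests on 1 array (adjusted p = 0.709).

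**Figure D2:**
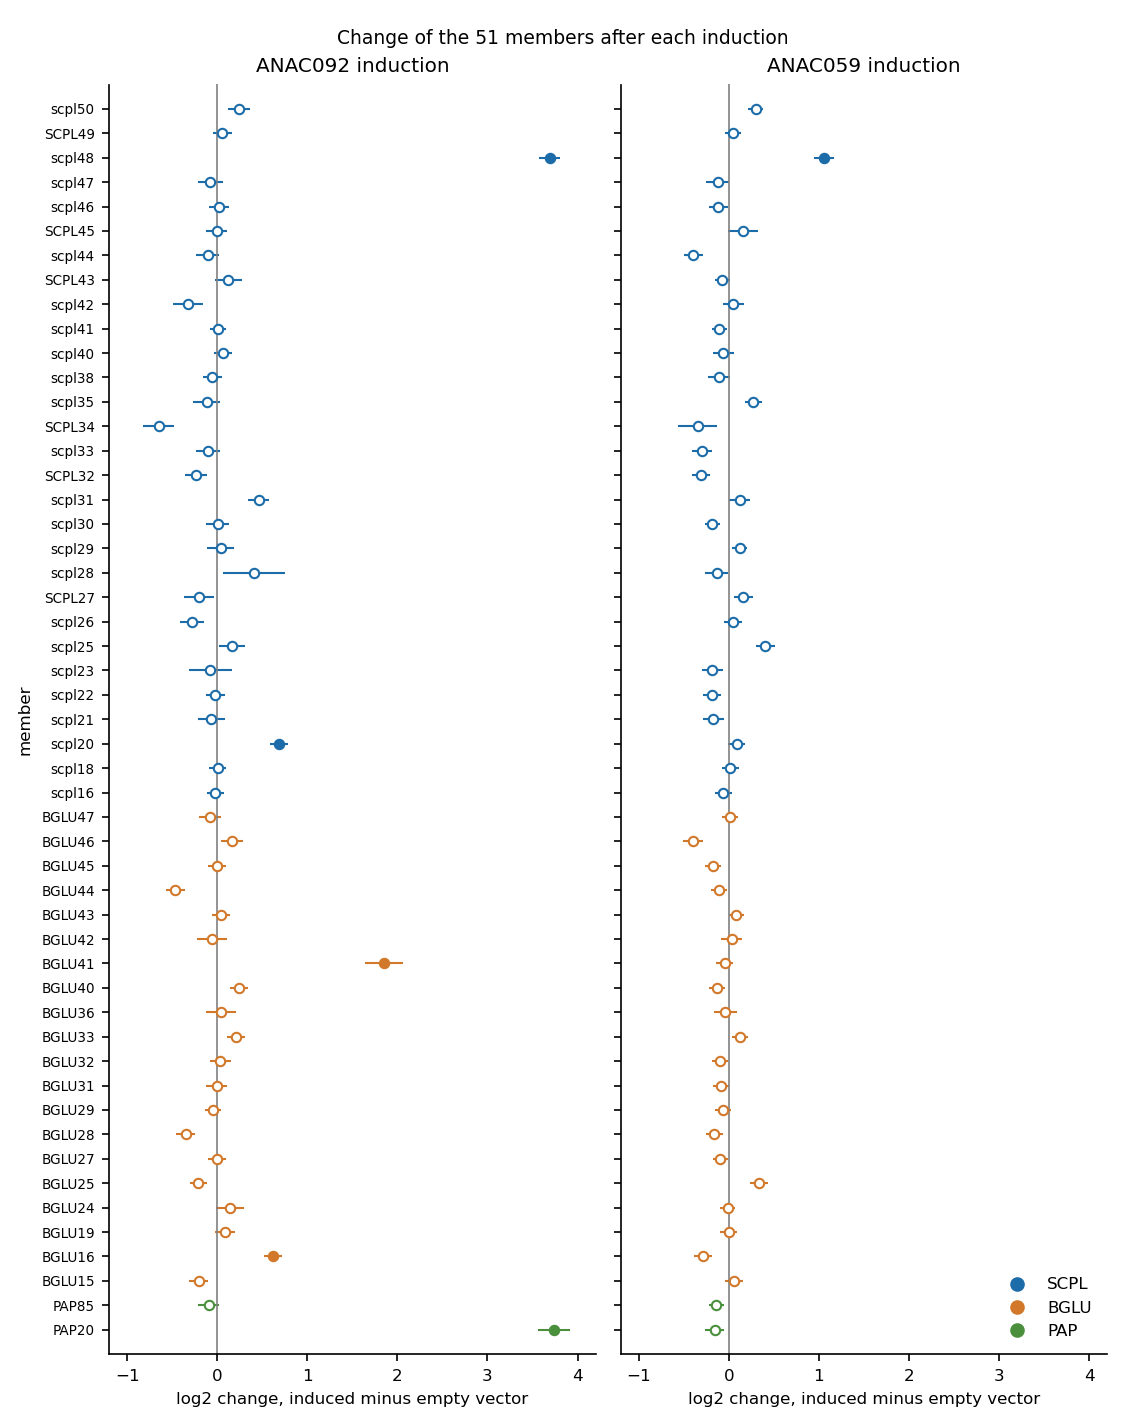
Log2 change (horizontal axes, induced minus empty vector; bars are limma standard errors) of the 51 members, grouped by family, after ANAC092 induction (left) and ANAC059 induction (right). Filled points passed the threshold: scpl48, PAP20, BGLU41, scpl20 and BGLU16 on the left and scpl48 on the right.

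After ANAC059 induction 1 of the 51 members passed, and it was again scpl48. Its log2 signal was 9.21 and 9.09 on the empty vector arrays of this set and 10.09 and 10.31 on the induced arrays, which lay apart. The rise was 2.08-fold (log2 change 1.05 ± 0.11 SE, n = 2 per group, limma adjusted p = 0.00745). It was called in all 4 fits that left out 1 array, with changes from 0.94 to 1.17 and adjusted p from 0.00704 to 0.0416. The members' 1.96% called compares with 2.99% of all probe sets (1.65% higher, 1.34% lower), so their share was not above the background. In this set 10 members had an unadjusted p under 0.05, against 20.4% of all probe sets.

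None of the 20 BGLU genes passed in limma after ANAC059 induction, 3 had an unadjusted p under 0.05, and their changes ran from -0.40 to 0.33. BGLU46 read 5.47 and 5.74 on the controls and 5.22 and 5.20 on the induced arrays (log2 change -0.40, adjusted p = 0.126). BGLU25 read 8.97 and 8.78, then 9.16 and 9.25 (0.33, adjusted p = 0.149). Neither group pair overlapped, but with 2 arrays a group 53% of all probe sets showed that. The 28 SCPL genes other than scpl48 lay between -0.39 and 0.40, with scpl44 at -0.39 ± 0.11 SE (6.14 and 5.94, then 5.56 and 5.72) and scpl25 at 0.40 ± 0.11 SE (8.18 and 8.12, then 8.43 and 8.67). Their adjusted p were 0.122 and 0.113. In all, induced arrays were above the controls for 10 members and below for 20, against 26.2% and 26.8% of all probe sets.

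The inductions are set side by side with no test of the difference, because the sets were normalized apart and appear to share control arrays: subtracting empty vector replicate 2 from 1 gave values that correlated at 0.883 from set to set. scpl48 rose in both, by 3.69 after ANAC092 and 1.05 after ANAC059. PAP20 rose by 3.74 after ANAC092, whereas in the ANAC059 set it read 5.84 and 5.88 on the controls and 5.82 and 5.57 on the induced arrays (log2 change -0.16 ± 0.11 SE, adjusted p = 0.445). BGLU41 was at 5.40 and 5.28 without ANAC059 and 5.24 and 5.35 with it, with overlapping groups (-0.05 ± 0.09 SE, adjusted p = 0.805). scpl20 changed by 0.09 ± 0.09 SE there (adjusted p = 0.627). BGLU16 was at 9.11 and 9.09, then 8.72 and 8.91, a change of -0.29 ± 0.10 SE (adjusted p = 0.181) against its rise of 0.62 after ANAC092.

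Array by array, most members stayed near their control mean. Across the 51 members the SD of the departure from the empty vector mean was 0.125, 0.0965 and 0.152 on the 3 empty vector arrays of the ANAC092 set in replicate order, and 0.829, 0.838 and 0.786 on induced replicates 1, 2 and 3. Over all probe sets these SDs were 0.163, 0.133 and 0.239, then 0.320, 0.439 and 0.297. Each empty vector array is part of the mean it departs from, which makes its departures smaller. On the induced arrays 3, 4 and 3 members lay more than 1 above their control mean and 0 lay more than 1 below. The fourth member, on replicate 2, was scpl28. Of all 22746 probe sets, 224, 403 and 207 lay more than 1 above and 49, 245 and 74 more than 1 below. The array medians of the members were -0.06, 0.10 and -0.01 on the induced arrays, so replicate 2 stood slightly above the others. Over all probe sets the SD of the difference was 0.129 for induced replicates 1 and 3, and 0.364 and 0.343 for the pairs with replicate 2. For the empty vector it was 0.178 between replicates 1 and 2, and 0.386 and 0.351 for the pairs with replicate 3.

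**Figure D3:**
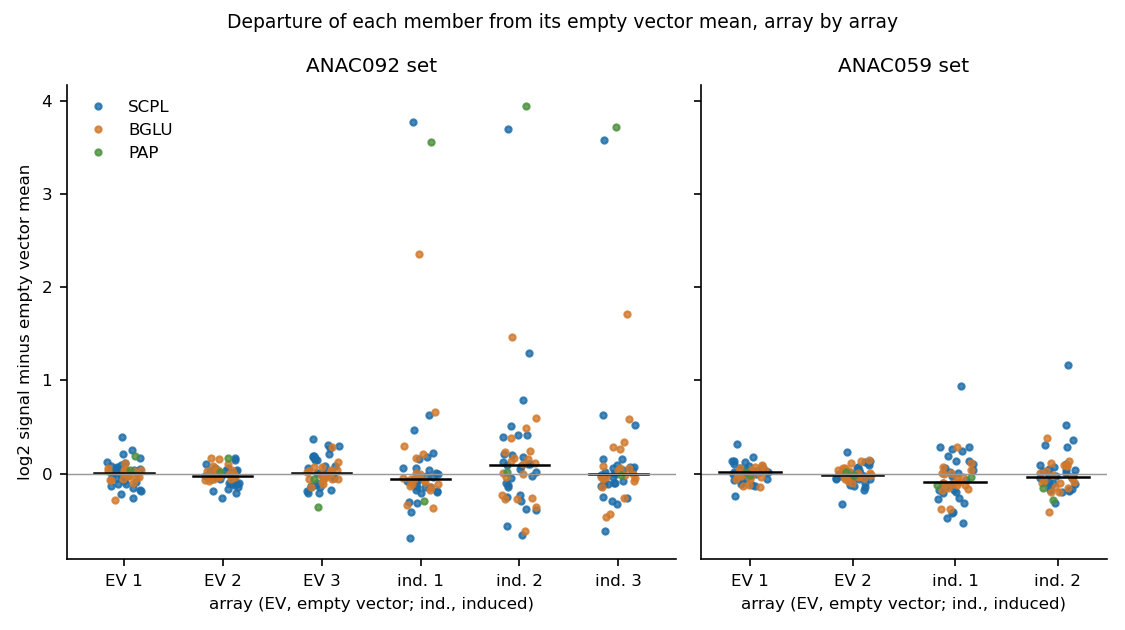
Log2 signal of each member minus the mean of the empty vector arrays of its set (vertical axis), array by array; points are members coloured by family and black lines are medians over the 51 members. The strong rises of scpl48, PAP20 and BGLU41 stand above the cloud on each ANAC092 induced array, and the members' medians stay between -0.06 and 0.10 there.

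Family members often lie next to each other in the genome, and their changes were read pair by pair. By the order of protein-coding genes in the TAIR10.1 gene table, 15 members formed 8 pairs of adjacent genes. In 1 pair a member was called after ANAC092 induction, BGLU16, whose neighbour BGLU27 changed by -0.01 on the log2 scale. BGLU27 was dim, averaging 5.30 on the controls and 5.29 on the induced arrays. BGLU29, BGLU31, BGLU32 and BGLU43 were also dim, averaging 5.01 to 5.20 on the controls. The lowest array median was 7.55, and changes at such signals can be compressed. In 0 pairs were both called. With 1.4% of all probe sets called higher, 8 pairs are too few to show whether neighbours rise together. The neighbours BGLU15, BGLU28 and BGLU29 changed by -0.21, -0.35 and -0.05, and scpl22 and scpl23 by -0.02 and -0.08. For scpl28 and scpl26 the changes were 0.41 and -0.28, and for BGLU43 and BGLU44 0.04 and -0.47. BGLU45 and BGLU46 changed by -0.00 and 0.16, and BGLU31 and BGLU32 by -0.01 and 0.03. scpl48, PAP20, BGLU41 and scpl20 had no adjacent member.

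In leaf 11 no member differed from wild type by 1 or more on the log2 scale in the ANAC092 line, against 1.8% of all probe sets, and 1 did in the ANAC059 line, against 5.26%. There is no replicate and hence no test. The genes that rose after ANAC092 induction differed from wild type by less than 1 in both lines. PAP20 and BGLU16 differed by more than 0.5 in the ANAC059 line. scpl48 read 7.62 in wild type, 7.87 in the ANAC059 line and 7.24 in the ANAC092 line, differences of 0.25 and -0.38. PAP20 read 4.36, 3.83 and 4.11, or -0.54 and -0.25, at signals below the median of the leaf arrays. BGLU41 read 4.87, 4.69 and 4.80. BGLU16 read 7.44, 7.95 and 7.65, higher in both lines, and scpl20 had the same value of 7.63 on all 3 arrays.

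In the ANAC059 line 5 of 20 BGLU genes and 1 of 29 SCPL genes were higher by 0.5 or more, against 12% of all probe sets. In the same line 1 member, PAP20, was lower by that much, against 4.67%. Near this cut the counts turn on the normalization: with the leaf arrays quantile normalized once more, scpl25 moved from -0.41 to -0.55 and the SCPL gene, scpl50, from 0.52 to 0.39. BGLU25 had the largest, with 5.94 in wild type, 7.30 in the ANAC059 line and 5.87 in the ANAC092 line, a difference of 1.36 in the ANAC059 line alone. BGLU33 read 4.66, 5.61 and 4.87, and BGLU31 read 4.595, 5.298 and 4.478. Both stayed below the lowest leaf array median of 5.73 on all 3 arrays. Of the 5 BGLU genes BGLU16, at 0.516, lay close to the cut. BGLU40 was higher in both lines, at 5.96 in wild type against 6.90 and 6.87. Of the SCPL genes scpl50 was also higher in both lines, at 5.61 in wild type, 6.12 in the ANAC059 line and 6.32 in the ANAC092 line. SCPL34 differed by 0.21 and 0.70, and scpl25 by -0.41 and 0.56, in the ANAC059 and ANAC092 lines. SCPL49 differed by 0.40 in the ANAC059 line and had the wild type value in the ANAC092 line. BGLU44 and BGLU42, at 0.31 and 0.29 in the ANAC059 line, were at -0.42 and -0.29 in the ANAC092 line. scpl26 read 9.45, 9.17 and 9.59 in wild type, the ANAC059 line and the ANAC092 line. In the ANAC092 line 4 members were higher by 0.5 or more and 0 lower, against 4.27% and 4.76% of all probe sets.

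**Figure D4:**
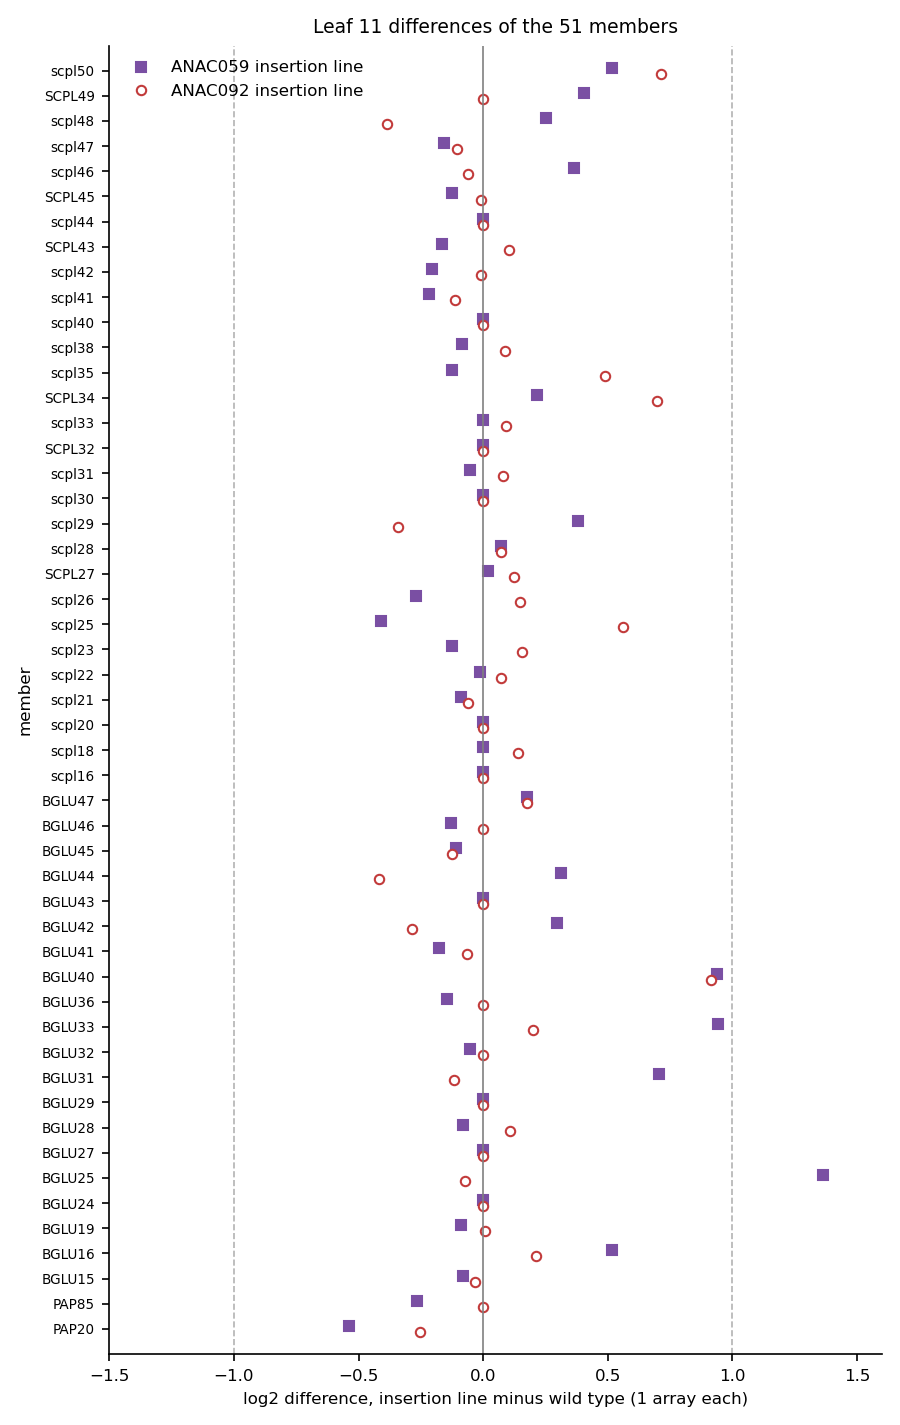
Log2 difference from wild type (horizontal axis) of the 51 members in leaf 11 of the ANAC059 line (squares) and the ANAC092 line (open circles), 1 array each; dashed lines mark 1 and -1. BGLU25 in the ANAC059 line, at 1.36, is the only point past a dashed line.

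Many leaf differences were exactly 0. In the ANAC059 line 12 members, and in the ANAC092 line 15, had the same deposited value as in wild type, as did 22.1% and 27.2% of all probe sets. Identical values also occurred at signals above the highest leaf array median of 5.83. scpl20 was at 7.63 on all 3 arrays, and SCPL49 at 9.14 in wild type and the ANAC092 line. Of the members 33 stayed below the median of all leaf values on the 3 arrays, and 32 had a mean below the median probe set in the ANAC092 set. Differences can be compressed at such dim signals, and a member that did not pass is not shown to be unchanged.

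Genes with related work were looked at through fixed lists, few of whose genes had a named probe set. Of 17 other glycoside hydrolases AMY1, an alpha-amylase gene, rose after ANAC092 induction (log2 change 1.49 ± 0.17 SE, limma adjusted p = 0.00493), and was at -0.15 after ANAC059 (adjusted p = 0.548). The list's median was -0.00. After ANAC059 induction the endoglucanase genes GH9C2 (0.72, adjusted p = 0.0116) and GH9B8 (0.47, 0.0436) rose. Of 13 other vacuolar and apoplastic proteases ALPHA-VPE, a vacuolar processing enzyme gene, rose by 2.38 after ANAC092 (adjusted p = 0.00201), and the subtilase gene SBT3.3 by 0.47 after ANAC059 (0.0401). Of 6 genes listed for sinapate ester and phenylpropanoid metabolism, UGT84A3 rose by 0.62 after ANAC059 (0.0273). After ANAC092 UGT84A3 was at -0.66 (limma adjusted p = 0.135) and SBT3.3 at -0.52 (0.147), neither called. GH9C2 and GH9B8 were at 0.25 (0.458) and 0.30 (0.615) there, also uncalled.

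Of 6 genes tied to glucosinolate breakdown none passed in either induction, and PYK10 was at 0.24 and 0.35 after ANAC092 and ANAC059. The 1 phosphate starvation gene measured of 30 listed, PS2, was at -0.06 and 0.00. Whether the rise of PAP20 after ANAC092 goes with phosphate starvation was not tested. Of 5 leaf senescence genes SAG29 rose after ANAC092 (4.55, adjusted p = 4.76e-05) and WRKY53 after ANAC059 (0.65, 0.0447). No other change of that list passed, and the directions were mixed. After ANAC092, WRKY6 was at -0.68, YLS5 at -0.34, SAG101 at 0.21 and WRKY53 at 0.38. After ANAC059, WRKY6 was at -0.02, YLS5 at -0.24, SAG29 at 0.16 and SAG101 at 0.39. Root genes were looked at because shoots could carry root tissue, but a change between groups cannot show tissue that both groups hold. Of 27 listed, 3 were measured and none passed: PYK10 averaged 11.59 on the controls and 11.84 on the ANAC092 arrays, EXPA7 6.44 and 6.56, and EXPA18 5.996 and 6.096. In wild type leaf 11, normalized apart, PYK10 read 4.23, EXPA7 5.39 and EXPA18 5.45. Whether root tissue lies behind the high PYK10 signal of the shoots was not tested. The seed and flower list had PAP85 as its 1 measured gene.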

How the data were processed

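Per the labels and the submitters' processing notes, the deposited values are log2 signals the authors made with RMA, in 3 sets normalized apart; no software version is stated there. From the 22810 rows 64 control probe sets were left out, and 22746 were fitted. Gene names came from the platform annotation (13513 probe sets with 1 gene) and loci and the order of neighbouring genes from the TAIR10.1 gene table; no coordinates are given. Induced and empty vector arrays were compared within a set with limma 3.58.1 in R 4.3.3 (lmFit, eBayes, two-sided, Benjamini-Hochberg over all probe sets, threshold 0.05), without a filter on low values, and the step was tested on simulated data. Leaf differences have no test. The number of arrays limits the precision. Arrays of a group are called biological replicates in their titles; whether they came from separate plants or cultures is not stated, and p-values measure only the spread between them.

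The members and lists were chosen with earlier results of these data known. Named are the called members and, per family, the 3 largest changes in each induction, the 3 largest leaf differences in each line and the 2 highest signals in each set, with called list genes; characterised BGLU genes, scpl28, adjacent genes and uncalled list genes were added after values were seen.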

Additional observations from a re-analysis of the deposited data

How the results depend on the processing

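scpl48 and PAP20 were called after ANAC092 induction under all 12 alternatives, with changes of 3.50 to 3.78 and 3.56 to 4.11, and BGLU41 in 10 of the 11 that tested it; BGLU16 and scpl20 were each called in 6 of 12. The count of members called (5) ranged from 3 to 6 without single arrays, scpl31 being the sixth without empty vector replicate 3 (0.57, adjusted p = 0.0272, against 0.46 and 0.135 with all arrays). It was 3 with induced replicates 1 and 3 averaged and 2 against empty vector replicate 3 alone. All probe sets called (507) numbered 209 to 787 without single arrays and 242 with the average. For PAP85 the change ran from -0.16 to 0.0035 without single arrays, turning sign without induced replicate 1. After ANAC059 induction scpl48 was called in 7 of 8 alternatives; all probe sets called (679) numbered 161 to 444 without single arrays. Same-numbered arrays did not pair: deviations from the group means correlated at -0.107, 0.271 and 0.0968 in the ANAC092 set, where 1 of 3 empty vector arrays correlated best with its own number, and at 0.0281 in the ANAC059 set. With the replicate block limma called 5 members and 553 probe sets after ANAC092, but 0 members (9 at an unadjusted p under 0.05) and 0 probe sets (4131) after ANAC059, with an adjusted p of 0.0829 for scpl48. With the leaf arrays quantile normalized once more, scpl50 in the ANAC059 line went from 0.52 to 0.39 and scpl25 from -0.41 to -0.55. In the same line BGLU25 went from 1.36 to 1.19, still past 1, and BGLU40 from 0.94 to 0.77. No leaf member differed by 1.5 or more (0 in each line). Removing dim probe sets leaves BGLU41 untested. With the deposited values after ANAC059 375 probe sets were higher and 304 lower, against 335 and 362 with quantile normalization once more and 566 and 358 with dim probe sets removed. The causes of these shifts were not tested. Dim signals limit what could be seen, and no scanner intensities were used.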
